A study of Mus musculus with 90 samples.

Results

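Fibroblast growth factor (FGF) signaling was followed through 10 genes in single mouse oocytes and embryos with and without maternal Plag1. The genes were chosen by symbol from the 24422 genes of the count table: the ligand Fgf4, the receptors Fgfr1, Fgfr2, Fgfr3 and Fgfr4, the adaptor Grb2, the feedback inhibitors Spry2, Spry4 and Dusp6, and the target Etv5. All 10 were in the table, and all 10 were among the 16511 genes tested, each of which reached 1 CPM (counts scaled to a common library total) in 5 or more libraries. A gene that passes such a filter need not be detected at every stage, and 3 of the 10 had no count in any oocyte.

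The series compared wildtype (WT) with Plag1 knockout (KO) on the CD-1 background at 3 stages: uncultured MII oocytes collected 21 to 23 h after hCG and freed of cumulus cells, and cultured embryos at the 2-cell stage (2c, 45 to 47 h after fertilization) and the 8-cell stage (8c, 71 to 73 h). Sexually mature, superovulated females were mated with WT studs, so the matPlag1KO embryos were heterozygotes that received no functional Plag1 allele from the mother, while the Plag1KO oocytes came from unmated KO females. Libraries were made from the 5′ ends of transcripts of 1 oocyte or embryo each, in 2 multiplexed sets labelled libA and libB, and 78 of 90 passed a depth filter: 16 WT and 14 Plag1KO oocytes, 11 WT and 11 matPlag1KO 2c embryos, and 15 WT and 11 matPlag1KO 8c embryos. Each label also carries a letter and a number (D2, for example), called the position here, and what it stands for is not given in the sources used here. The labels do not say which embryos shared a mother, so p-values measure the spread between libraries and not between females.

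FGF ligands bind receptor tyrosine kinases together with heparan sulfate, and the adaptor GRB2 links the active receptor to RAS and the ERK kinases. Sprouty proteins and the phosphatase DUSP6 damp the cascade and are themselves induced by it, and ETV5 is a transcription factor of the ETS family that often serves as a readout of FGF signaling. In the mouse blastocyst, FGF4 from epiblast precursors steers neighbouring inner cells towards primitive endoderm, a decision that lies after the stages measured here.

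A kept library held a median of 395023 gene counts in WT and 649899 in Plag1KO oocytes. The 2c medians were lower, 148473 (WT) and 163626 (KO), and the 8c medians were 564009 (WT) and 393914 (KO), so 1 count at 2c weighed several CPM and low genes were measured least well there. Plag1 itself gave 326 counts in 16 of 16 WT oocytes and 4 counts in 3 of 14 Plag1KO oocytes. At 2c the order was opposite, with 1 count in 1 of 11 WT embryos and 91 counts in 9 of 11 embryos labelled matPlag1KO, which carry a paternal WT allele. At 8c the totals were 10 and 6 counts. Of 7 markers of the 2-cell embryo, 5 had counts at 2c and Tcstv1 and Tcstv3 were at 0, and all 8 oocyte markers had counts in the oocytes. Of 14 markers of cumulus and granulosa cells, 8 had counts in WT and 8 in Plag1KO oocytes, with median sums of 21.5 and 21.3 CPM and at most 56.7 CPM in any library, and Amh, Foxl2, Ptx3, Tnfaip6 and Ptgs2 were at 0 in all oocytes.

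The promoters of the 10 genes are of interest because the libraries record transcript 5′ ends and PLAG1 is a zinc finger protein that binds DNA. RefSeq windows of 300 bases (250 before to 50 after the start, GRCm38.p6) were found for 8 of the 10 genes, 11 windows in all, and Fgfr1 and Spry4 had no entry. The published PLAG1 consensus, with its inner gap set at 7 bases, was searched on both strands and matched 1 of the 11 windows, at an Etv5 start. The same search matched 9.46% of 32851 promoters of the same length. Other gap lengths were not searched. The windows below belong to the 2 members that differed between genotypes at 2c, each from the more upstream of its listed starts, and to the Etv5 start with the match. Capitals mark the consensus match, which begins 33 bases before the start.

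Fgfr3, chr5:33721474-33721773, plus strand: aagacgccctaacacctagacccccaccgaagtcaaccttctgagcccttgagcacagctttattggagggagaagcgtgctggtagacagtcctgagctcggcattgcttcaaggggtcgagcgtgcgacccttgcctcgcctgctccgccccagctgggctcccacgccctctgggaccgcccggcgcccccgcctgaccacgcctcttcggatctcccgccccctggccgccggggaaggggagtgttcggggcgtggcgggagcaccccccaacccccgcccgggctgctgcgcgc

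Grb2, chr11:115699879-115700178, minus strand: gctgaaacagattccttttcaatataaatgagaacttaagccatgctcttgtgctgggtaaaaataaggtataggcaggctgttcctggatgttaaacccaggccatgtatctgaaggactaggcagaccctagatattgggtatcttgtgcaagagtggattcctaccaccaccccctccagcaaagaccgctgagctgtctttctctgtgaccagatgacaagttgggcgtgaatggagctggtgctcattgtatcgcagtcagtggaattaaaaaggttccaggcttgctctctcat

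Etv5, chr16:22438319-22438618, minus strand: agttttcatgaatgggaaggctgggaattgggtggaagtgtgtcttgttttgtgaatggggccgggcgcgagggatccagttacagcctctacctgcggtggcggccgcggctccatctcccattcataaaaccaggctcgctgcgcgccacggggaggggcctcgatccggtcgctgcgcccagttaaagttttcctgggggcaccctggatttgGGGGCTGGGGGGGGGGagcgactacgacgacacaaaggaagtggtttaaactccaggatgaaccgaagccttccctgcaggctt

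The Fgfr3 window was 69.7% G and C and the Grb2 window 46.7%. Neither held the consensus letters at the gap searched, nor did the second window of either gene. A match or its absence describes letters in these windows and no binding.

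The first question was whether the genotypes differed at each stage. No member differed between WT and Plag1KO oocytes, 2 of 10 differed at 2c and 1 of 10 at 8c (edgeR's quasi-likelihood test, Benjamini-Hochberg adjusted over all genes at 0.05). The background shares of genes called were 0.781% in oocytes, 4.92% at 2c and 1.74% at 8c. At 2c the growth factor receptor gene Fgfr3 was higher and the adaptor gene Grb2 lower in embryos labelled matPlag1KO. At 8c the inhibitor gene Spry4 was higher in matPlag1KO, and that call came from 1 position. Each of the 3 calls lost significance when the libraries of the position with most of the gene's counts in a group were left out. In oocytes 10.2% of genes had an unadjusted p under 0.05 and none of the 10 members did, in edgeR, and DESeq2 also called none of them. The lowest unadjusted p among the members in oocytes was that of Grb2 (0.0993).

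In oocytes Spry4 was the most counted member, from 141 to 3364 CPM in WT (median 603 CPM) and from 140.3 to 2380 CPM in Plag1KO (median 690.5 CPM), so the ranges overlapped. The log2 fold change was -0.24 ± 0.45 (SE). Fgfr1 ranged from 6.70 to 45.7 CPM in WT and from 0 to 37.0 CPM in Plag1KO, and Fgfr2 from 0 to 44.8 and from 6.35 to 75.8 CPM. Etv5 had medians of 29.9 CPM in WT and 16.3 CPM in Plag1KO (-0.56 ± 0.37, adjusted p = 0.680). Ranges of the 2 genotypes overlapped for each of the 7 members with counts in oocytes.

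**Figure D1:**
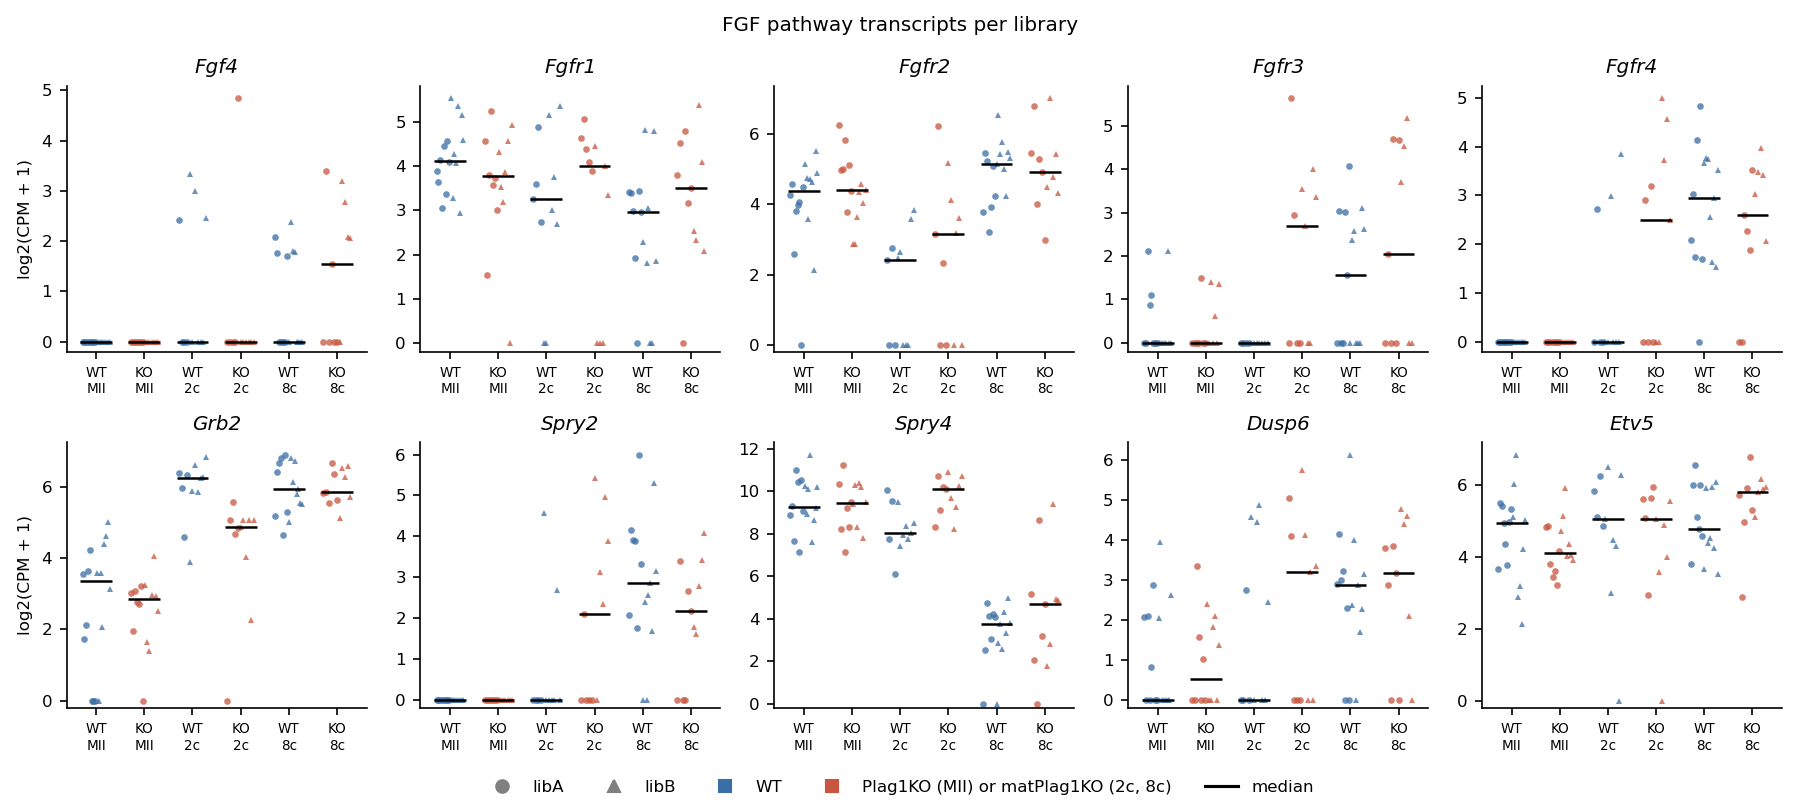
Level of each of the 10 genes in each of the 78 kept libraries, on a scale of log2(CPM + 1), by genotype and stage. Circles are libA, triangles libB and bars medians; Fgf4, Fgfr4 and Spry2 lie at 0 in all oocytes, Spry4 drops by 8c, and Fgfr3 is at 0 in all 11 WT 2c embryos.

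Among the receptors, Fgfr3 gave 0 counts in all 11 WT 2c embryos and 26 counts in 6 of the 11 embryos labelled matPlag1KO. Of those 26, 15 came from position D2 of libA and 1 from D6, and libB gave 3, 1, 4 and 2 counts in positions D2, D4, D7 and D8. The other 5 embryos labelled matPlag1KO were at 0, so the groups overlapped. Set against a floor of 3 counts over the WT group, Fgfr3 was 7.68-fold higher in embryos labelled matPlag1KO (edgeR adjusted p = 0.00757). A fold against such a floor allows for counting error in the group at 0 and not in the other group. Without the library in D2 of libA, left out after its value was seen, 11 counts remained in 5 embryos, 3.76-fold above the floor, and the adjusted p was 0.0407. Without both D2 libraries 8 counts remained, 3.19-fold above the floor, with an adjusted p of 0.0742. Across the alternatives it ran from 0.00492 to 0.491, the upper end being libA alone, and libB alone gave 0.0730. DESeq2 set no adjusted p for this gene.

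Fgfr3 lay low in oocytes, with 7 counts in 4 of 16 WT and 4 counts in 4 of 14 Plag1KO libraries. At 8c it had counts in 8 of 15 WT embryos and in 6 of 11 labelled matPlag1KO, with medians of 1.97 and 3.17 CPM and maxima of 15.8 and 35.1 CPM. The 8c log2 fold change was 1.56 ± 0.65 (SE; adjusted p = 0.226), and it was 0.92 without position F5. The genotype difference of Fgfr3 was larger at 2c than in oocytes when that interaction was tested (adjusted p = 0.0275), the 1 member of 10 to pass against a background share of 3.31%. Position D2 held 18 of the 26 counts at 2c, and the interaction was not refitted without it. The same test between 2c and 8c called 0 of 10 members (background 2.3%), with an adjusted p of 0.139 for Fgfr3. At an unadjusted p under 0.05, 4 members passed there (Spry2, Fgfr3, Grb2 and Spry4), against 17.9% of all genes.

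Grb2 moved the other way at 2c. Every WT 2c embryo had counts, from 13.7 to 112 CPM with a median of 75.1 CPM. The embryos labelled matPlag1KO ranged from 0 to 46.9 CPM with a median of 28.2 CPM, and 9 of the 11 WT embryos were above the highest of them. Mean levels were 66.7 ± 29.1 CPM (SD, n = 11) in WT and 25.1 ± 13.8 CPM (SD, n = 11) in embryos labelled matPlag1KO, a log2 fold change of -1.38 ± 0.44 (SE; edgeR adjusted p = 0.0457). The means were 61.3 and 26.3 CPM in libA and 69.7 and 24.2 CPM in libB, so the order was the same in both.

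The Grb2 call stood close to the threshold. In the fits across all genes the log2 fold change stayed between -1.54 and -1.17 in all 12 alternatives, while the adjusted p ran from 0.0291 to 0.593 and stayed under 0.05 in 4 of them. Leaving out the WT embryo in position C8 of libB, the highest in Grb2, gave 0.0796, and leaving out the matPlag1KO embryo in D2 of libA gave 0.0567, or 0.0792 with both D2 libraries left out. In oocytes Grb2 had medians of 9.23 CPM in WT and 6.27 CPM in Plag1KO, and at 8c of 60.3 and 57.0 CPM, where the log2 fold change was -0.04 ± 0.37 (SE). The test of the 2c difference against the 8c difference gave an adjusted p of 0.181, so the stages were not shown to differ.

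Spry4, the member with the most counts, ranged at 2c from 67.5 to 1079 CPM in WT (median 262 CPM) and from 300 to 1885 CPM in embryos labelled matPlag1KO (median 1113 CPM). The groups overlapped, and 6 of the 11 embryos labelled matPlag1KO lay above every WT embryo. The log2 fold change was 1.36 ± 0.53 (SE) with an edgeR adjusted p of 0.115. DESeq2 (0.0485) and a fit of the 2c embryos alone (0.00574) passed the threshold, and the alternatives reached 0.752 at the upper end. Within the 11 embryos labelled matPlag1KO, Spry4 rose with depth (Pearson r = 0.841, Spearman rho = 0.827, permutation adjusted p = 0.0120 and 0.0158 over 9 relations), and r was 0.599 without the 2 embryos farthest from the median depth. In the 11 WT 2c embryos r was 0.442 and rho 0.364 (permutation adjusted p = 0.346 and 0.449). The part of depth in the 2c difference was not tested.

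The other receptors were not called at 2c. Fgfr2 gave 9 counts in 6 WT embryos and 43 counts in 7 embryos labelled matPlag1KO, a log2 fold change of 1.80 ± 0.66 (SE; adjusted p = 0.0873), which DESeq2 (0.0276) and median-ratio size factors (0.0433) put past the threshold. Without the embryo in D2 of libA, Fgfr2 gave 1.02 and an adjusted p of 0.412. Fgfr4 gave 5 counts in 3 and 18 counts in 6 embryos (log2 fold change 1.55 ± 0.81, adjusted p = 0.264), and Fgfr1 gave 28 and 35 counts (0.02 ± 0.59, adjusted p = 1). Fgfr1 shares its locus on the opposite strand with Gm16159, so its reads may not all be its own.

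Among the rest at 2c, the inhibitor gene Spry2 gave 6 counts in 2 WT embryos and 26 counts in 6 embryos labelled matPlag1KO (log2 fold change 1.71 ± 0.87, adjusted p = 0.247). Dusp6, the ERK phosphatase gene, gave 14 and 31 counts (0.78 ± 0.81, adjusted p = 0.612). The ligand gene Fgf4 gave 5 counts in 4 WT embryos and 6 counts in a single embryo labelled matPlag1KO (adjusted p = 1). Etv5 had means of 39.6 ± 29.8 and 29.8 ± 19.7 CPM (SD, n = 11 each) and a log2 fold change of -0.41 ± 0.46 (adjusted p = 0.656). None of these 4 genes passed the test in any of the alternatives at 2c.

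A permutation test on log2(CPM + 1) of single genes, with no adjustment over genes, was also run at 2c on 4 members chosen after their values were seen. Between 11 and 11 libraries Grb2 differed by -1.66 (permutation p = 0.00250), with exact p of 0.0952 in libA and 0.0245 in libB. Spry4 had means of 9.77 in embryos labelled matPlag1KO and 8.27 in WT on that scale (permutation p = 0.00340), with exact p of 0.190 in libA and 0.0105 in libB. Fgfr3 differed by 2.01 (permutation p = 0.0126; exact p = 0.556 in libA and 0.0420 in libB) and Fgfr2 by 0.92 (permutation p = 0.275). Grb2, Spry4 and Fgfr3 thus passed 0.05 over all libraries and in libB, and none of the 4 did in libA, which holds 5 and 4 of the libraries. The test takes libraries as independent, although same-position Spry4 levels correlated at 2c (Pearson r = 0.854, permutation adjusted p = 0.0613). Only 2 of the 8 positions kept in both sets at 2c held opposite genotypes, and position means were not tested there.

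Summed stage markers stood at other levels in the 2 groups at 2c. The summed level of 8 oocyte markers ranged from 1631 to 6580 CPM in WT (median 3372 CPM) and from 2393 to 8693 CPM in embryos labelled matPlag1KO (median 4925 CPM), and that of 8 markers of the 8-cell embryo ranged from 333 to 2335 CPM (median 1414 CPM) and from 323 to 1285 CPM (median 424 CPM). By the test of single genes, 1 oocyte marker was higher and 1 marker of the 8-cell embryo lower in embryos labelled matPlag1KO, each of 8, against 4.92% of all genes called. All 8 oocyte markers had counts in both groups, and Krt8 was at 0 in WT. A sum is weighted to the most counted markers, and over the single genes the median log2 fold change was 0.26 for the oocyte markers and -0.09 for the markers of the 8-cell embryo, against 0.12 for all genes. In oocytes the summed oocyte markers ranged from 4408 to 23807 CPM in WT (median 6035 CPM) and from 4322 to 20784 CPM in Plag1KO (median 15175 CPM), with a median log2 fold change of 0.63 against 0 for all genes and none of the 8 called. At 8c the summed markers of the 8-cell embryo had medians of 6857 CPM in WT and 5939 CPM in matPlag1KO, and the summed oocyte markers of 73.3 and 120.6 CPM. Of the 8 markers of the 8-cell embryo 2 were lower, and 1 of the 8 oocyte markers was lower, against 1.74% of all genes called. The median log2 fold change was -0.74 for the markers of the 8-cell embryo and 0.20 for the oocyte markers, against 0 for all genes. The part of developmental timing in the genotype results was not tested.

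**Figure D2:**
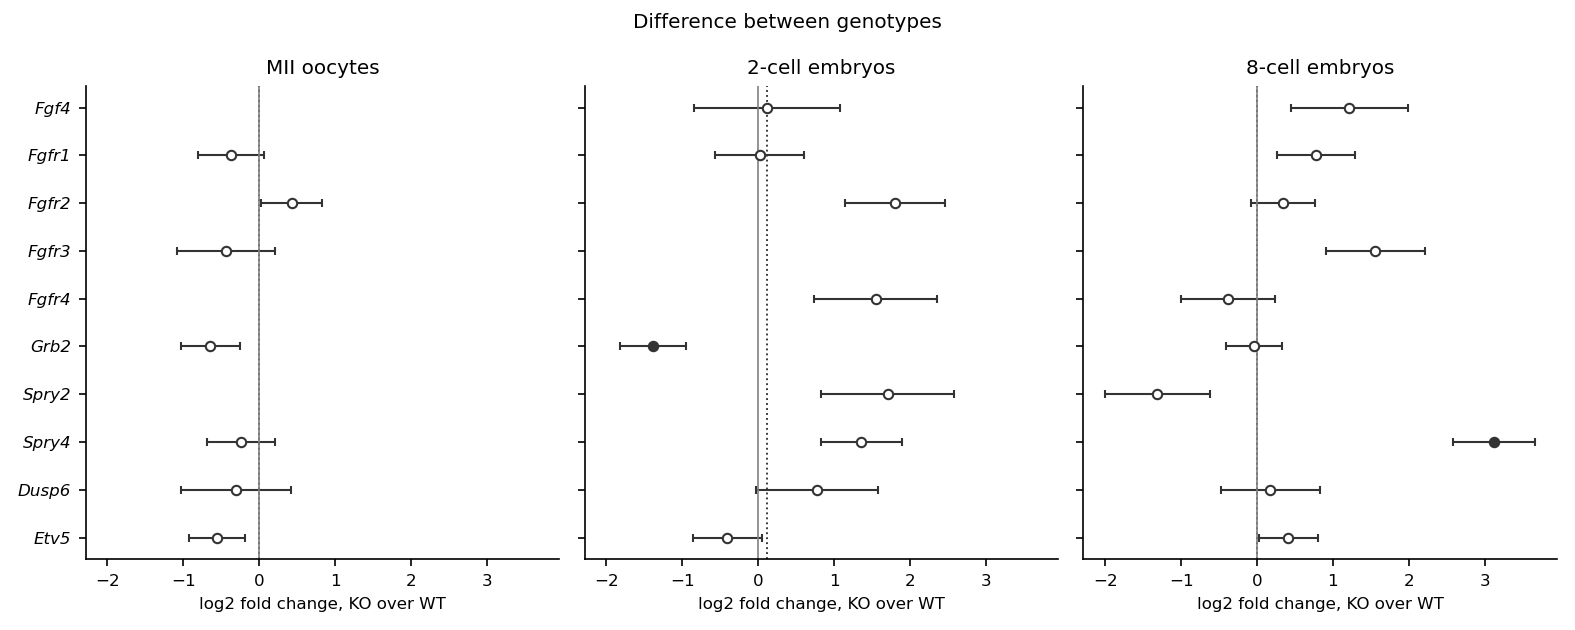
Log2 fold change of each member between genotypes (KO over WT) in oocytes, 2c and 8c embryos, with its standard error. Filled points passed an adjusted p of 0.05, dotted lines are the median of all genes, and genes with a group at 0 are left out, Fgfr3 at 2c among them; Grb2 at 2c (-1.38) and Spry4 at 8c (3.12) are the filled points.

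At 8c Spry4 was the called member. WT embryos ranged from 0 to 30.6 CPM with a median of 12.4 CPM, and matPlag1KO embryos from 0 to 681 CPM with a median of 24.4 CPM. The edgeR log2 fold change was 3.12 ± 0.55 (SE; adjusted p = 0.000163). The libraries of position F5 gave 395 CPM in libA and 681 CPM in libB, and no other matPlag1KO library exceeded 34.5 CPM.

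Those 2 libraries carried 207 and 233 of the 481 Spry4 counts of the group. Without position F5, a choice made after the values were seen, the log2 fold change was 0.23 (adjusted p = 0.928) and no member was called at 8c. The adjusted p of the fits across all genes lay between 5.29e-06 (DESeq2) and 0.928. A permutation test on log2(CPM + 1), which weighs single high libraries less, gave a difference of 1.10 between 11 and 15 libraries (permutation p = 0.221), and an exact permutation test of 6 against 8 position means gave 0.67 (p = 0.600). At 8c every position that was kept in both sets held the same genotype in both, 12 positions in all, so position and genotype cannot be told apart there. In WT 8c embryos Spry4 rose with depth (r = 0.831, rho = 0.713, permutation adjusted p = 0.0120 and 0.0158), with r of 0.429 without the 2 farthest embryos, and in matPlag1KO r was 0.25 and rho -0.02 (permutation adjusted p = 0.517 and 0.969).

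The other 9 members did not pass at 8c. Spry2 had medians of 6.29 CPM in WT and 3.48 CPM in matPlag1KO (log2 fold change -1.31 ± 0.69, adjusted p = 0.379). Fgf4 gave 7 counts in 6 of 15 and 12 counts in 6 of 11 embryos (1.22 ± 0.77, adjusted p = 0.505). The remaining log2 fold changes ran from -0.38 for Fgfr4 to 1.56 for Fgfr3, and in WT and matPlag1KO Fgfr2 had medians of 34.8 and 29.5 CPM and Etv5 of 26.2 and 54.8 CPM.

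Spry4 levels followed the position across sets. In oocytes, where all 14 positions kept in both sets held opposite genotypes, the CPM values in libA and libB were 2380 and 3364 in position B4, 141 and 221 in A6, and 140 and 196 in B5. Positions that were high in one set were high in the other. Deviations from the group means correlated with Pearson r = 0.918 and Spearman rho = 0.886 over the 14 positions (permutation adjusted p = 0.000360 and 0.00108 over 18 relations), and r was 0.869 without the 2 positions farthest from the median.

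Over 7486 genes at 10 CPM or more in oocytes, the median same-position r was 0.567, and Spry4 stood above 97.7% of these genes. At 2c (8 positions, 2 with opposite genotypes) r was 0.854 (rho 0.810, exact permutation adjusted p = 0.0613 and 0.122). At 8c (12 positions) r was 0.786 (rho 0.566, permutation adjusted p = 0.0613 and 0.154) but 0.274 without the 2 farthest positions. Gene counts of same-position libraries also correlated in oocytes (r = 0.710, rho 0.613, permutation adjusted p = 0.0191 and 0.0694), whereas Spry4 level and gene counts had r of 0.210 in WT (rho 0.185) and 0.240 in Plag1KO oocytes (rho 0.297; permutation adjusted p of at least 0.449 for each). Of the other members at 10 CPM or more in oocytes, Fgfr1, Fgfr2 and Etv5 had same-position r of 0.502, 0.521 and 0.605 (rho 0.547, 0.525 and 0.596; permutation adjusted p from 0.0755 to 0.160). These checks were added after the values were seen, and what a position stands for was not tested.

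**Figure D3:**
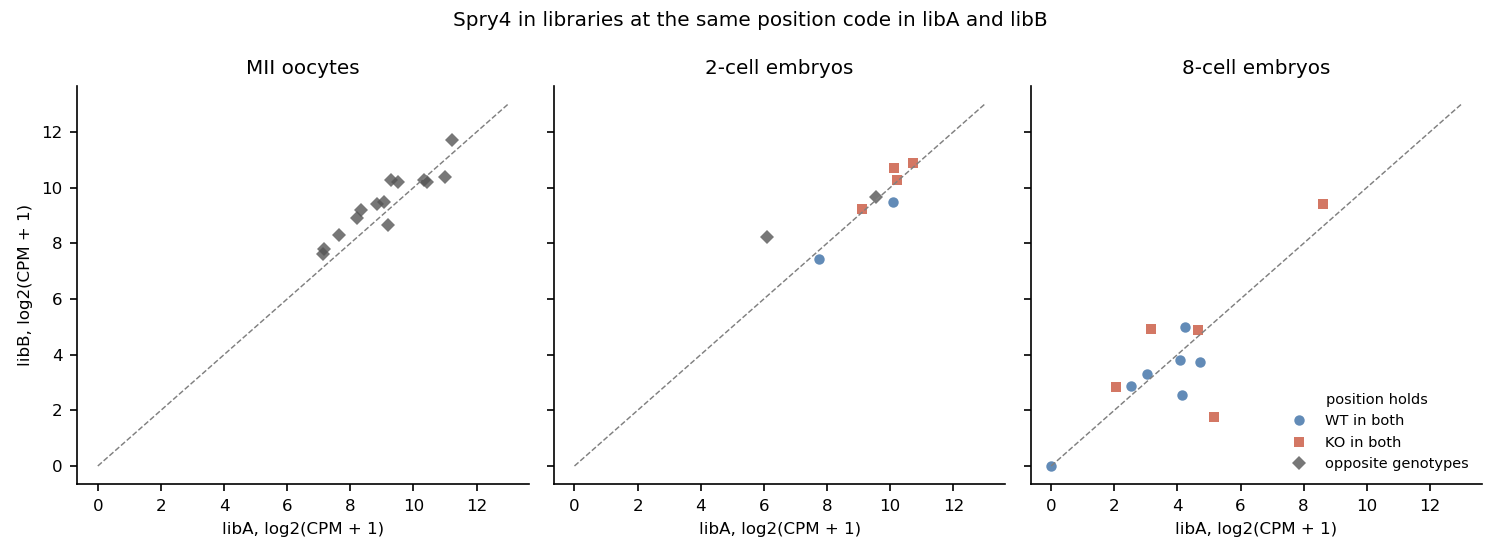
Spry4 level in the 2 libraries of each position kept in both sets, log2(CPM + 1) in libA against libB, by stage; the dashed line marks equal levels. The 14 oocyte positions hold opposite genotypes and lie along the line, and at 8c position F5 (KO in both sets) stands apart at 395 and 681 CPM.

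The second question was how the genes changed between stages, for which levels were scaled to the same amount of spike-in RNA added to each library. On that scale the receptors Fgfr1 and Fgfr2 and the inhibitor Spry4 fell from oocytes to 2c in both genotypes, although under TMM scaling, which sets most genes level, the Spry4 change in KO turned to 0.35 and Fgfr1 did not pass. Fgf4, Fgfr4 and Spry2, with no count in any of the 30 oocytes, had counts at 2c and 8c. Grb2 was higher and Spry4 lower at 8c than in oocytes. Values are counts of the gene per 10000 spike-in counts, and from the oocyte to 8c the number of cells and the RNA per cell change together, so they cannot be told apart.

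From oocytes to 2c, 8 of 10 WT members passed (3 higher, 5 lower), against 65.4% of all genes (14.1% higher, 51.3% lower), and 8 of 10 in KO (4 higher, 4 lower), against 63.8% (13.5% higher, 50.3% lower). From 2c to 8c, 5 passed in WT (4 higher, 1 lower), against 48.1% (31.9% higher, 16.2% lower), and 4 in KO (3 higher, 1 lower), against 48.6% (29.1% higher, 19.5% lower). From oocytes to 8c, 6 passed in WT (4 higher, 2 lower), against 70.7% (27.1% higher, 43.6% lower), and 7 in KO (6 higher, 1 lower), against 69.3% (24.1% higher, 45.2% lower). The totals lay near the background shares, and the 3 members at 0 in all oocytes could only be higher in the steps from there. The members were not tested as a set. Of the 38 stage calls of members, 11 lost significance without the libraries of the position that held most of the gene's counts in a group, each named below. Over all genes the median change (log2) was -1.46 in WT and -1.42 in KO from oocytes to 2c, 0.53 and 0.30 from 2c to 8c, and -0.67 and -0.95 from oocytes to 8c, and the members are set against these medians below.

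The ligand gene Fgf4 appeared at 2c with 5 counts in WT and 6 in matPlag1KO, and gave 7 (WT) and 12 (KO) counts at 8c. Set against the floor of 3 counts over the oocyte group, it was 2.58-fold higher at 2c and 2.18-fold higher at 8c in WT, and 2.62-fold and 5.35-fold higher in matPlag1KO (edgeR adjusted p = 0.00456, 0.00409, 0.00348 and 0.000271). The counting error of these few 2c and 8c counts is not in the folds. Levels at 2c and 8c did not pass as different (adjusted p = 0.913 and 0.453). All 6 counts of the matPlag1KO 2c embryos came from D8 of libA, so the other 10 were at 0 and gave no call without it. In WT at 2c, 3 of the 5 counts came from position C2 (adjusted p = 0.0577 without it). At 8c the folds against the floor were 1.43 without E2 in WT and 2.74 without E7 in matPlag1KO (adjusted p = 0.0241 and 0.00378). In the fits of all libraries DESeq2 did not call it at 8c (adjusted p = 0.494 in WT and 0.144 in KO).

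Fgfr4 and Spry2 were likewise at 0 in all oocytes and higher later. WT Fgfr4 gave 5 counts at 2c and 51 counts in 14 of 15 embryos at 8c. The 8c level was 15.9-fold above the oocyte floor (adjusted p = 1.40e-07) and 2.34 ± 0.76 higher than at 2c on the log2 scale (adjusted p = 0.00832). In matPlag1KO it gave 18 counts at 2c and 24 at 8c, with no call between them (0.43 ± 0.73, adjusted p = 0.650). WT Spry2 gave 6 counts at 2c and 87 at 8c, 27.1-fold above the oocyte floor (adjusted p = 1.16e-07) and 2.92 ± 0.84 above 2c (adjusted p = 0.00301). In matPlag1KO, Spry2 gave 26 counts at 2c and 18 at 8c (-0.43 ± 0.80, adjusted p = 0.681). The interaction of genotype with 2c against 8c was not called for either gene (adjusted p = 0.308 and 0.118), so the genotypes were not shown to differ in this step. In DESeq2 the WT rise from oocytes to 2c was not called for Fgfr4 or Spry2 (adjusted p = 0.232 and 0.226).

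Single positions carried much of these counts. In WT at 2c, C8 held 3 of the 5 Fgfr4 counts and C2 held 5 of the 6 Spry2 counts, and without them the rise from oocytes had adjusted p of 0.0696 and 0.189, while the rise from 2c to 8c was 3.25 and 4.38 (adjusted p = 0.000771 and 0.000255). At 8c, F3 held 52 of the 87 WT Spry2 counts. Without F3, Spry2 had 35 counts at 8c, 12.6-fold above the oocyte floor (adjusted p = 3.20e-06), and the step from 2c was 1.85 (adjusted p = 0.0528).

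Fgfr1 had medians of 8.27 in WT and 8.06 in Plag1KO oocytes per 10000 spike-in counts, 1.75 and 3.36 at 2c, and 2.38 and 3.01 at 8c. It fell by 2.01 ± 0.61 on the log2 scale from oocytes to 2c in WT (adjusted p = 0.00301) and by 1.95 ± 0.61 in KO (adjusted p = 0.00424), close to the median gene, and did not pass from 2c to 8c. With TMM scaling the changes from oocytes to 2c were -0.48 and -0.09 and neither passed. From oocytes to 8c it fell by 1.87 ± 0.53 in WT (adjusted p = 0.00130), and in KO the change of -1.25 ± 0.59 had an adjusted p of 0.0526, or 0.00640 without position F5 (-1.97).

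Fgfr2 dipped at 2c. Its medians were 9.89 in WT and 16.5 in Plag1KO oocytes per 10000 spike-in counts, 0.876 and 1.2 at 2c, and 12.7 and 13.3 at 8c. It fell by 3.53 ± 0.68 on the log2 scale from oocytes to 2c in WT and by 2.59 ± 0.60 in KO (adjusted p = 5.37e-06 and 0.000117), more than the median gene, and rose by 3.76 ± 0.68 and 2.25 ± 0.61 from 2c to 8c (adjusted p = 2.84e-06 and 0.00146). The 8c level did not pass as different from the oocyte level (0.23 ± 0.48 and -0.34 ± 0.53, adjusted p = 0.680 and 0.576). Under TMM the fall to 2c kept its sign in both genotypes and no longer passed in KO (-0.72, adjusted p = 0.210). Without position D2, which held 33 of the 43 KO counts at 2c, the KO steps were -4.11 and 3.76. Without E7 of the 8c embryos, which held 99 of 182 counts, the KO rise was 1.44 (adjusted p = 0.0480).

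Fgfr3 went from 7 counts in WT oocytes to 0 counts at 2c (adjusted p = 0.0320, or 0.0857 without the oocyte in A5, which held 3 of the 7). In WT it then reached 24 counts at 8c, 4.84-fold above the 2c floor (adjusted p = 0.00134). In KO it rose by 2.49 ± 0.83 on the log2 scale from oocytes to 2c (adjusted p = 0.00736), from 4 to 26 counts, but without the library in D2 of libA the change was 1.60 (adjusted p = 0.0908), and without both libraries in D2 it was 1.38 (adjusted p = 0.166). It was 3.55 ± 0.84 higher at 8c than in oocytes (adjusted p = 0.000143), or 2.87 without position F5 (adjusted p = 0.00276). The WT fall was lost under TMM, in DESeq2 and in each set alone (adjusted p = 0.224, 0.414, 0.135 and 0.360).

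**Figure D4:**
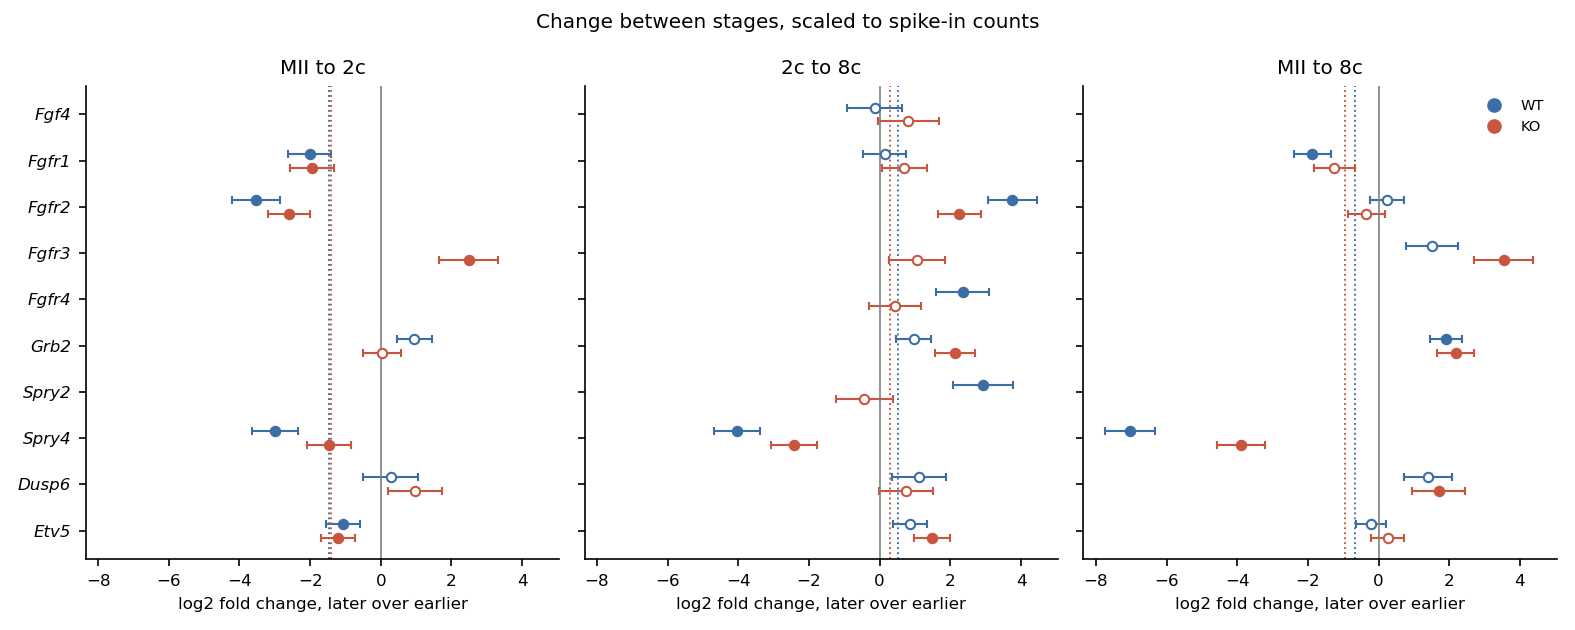
Log2 fold change of each member between stages on the spike-in scale, WT in blue and KO in red, with standard errors. Filled points passed an adjusted p of 0.05, dotted lines are the median of all genes, and genes with a group at 0 are left out; Spry4 is lower at each step on this scale (its KO step to 2c is 0.35 under TMM), while Fgfr2 falls to 2c and rises to 8c.

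Grb2 had medians of 3.29 in WT and 3.42 in Plag1KO oocytes per 10000 spike-in counts, 14.4 and 6.73 at 2c, and 24.3 and 21.1 at 8c. Its changes from oocytes to 2c, 0.95 ± 0.50 in WT and 0.04 ± 0.54 in KO, did not pass (adjusted p = 0.0834 and 0.970) although the median gene was far lower, and under TMM they were 2.73 and 2.00 and both passed. In KO it rose by 2.14 ± 0.56 from 2c to 8c (adjusted p = 0.00101), and every 8c embryo lay above every 2c embryo. In WT that step was 0.96 ± 0.51 (adjusted p = 0.108). From oocytes to 8c Grb2 rose by 1.91 ± 0.46 in WT and 2.18 ± 0.52 in KO (adjusted p = 0.000175 and 0.000143). Without the WT oocyte in A5 of libA, which held 47 of the 116 WT oocyte counts, the WT rise was 2.48 (adjusted p = 1.11e-06). Without the Plag1KO oocyte in A5 of libB, which held 29 of the 78 KO oocyte counts, the KO rise was 2.70 (adjusted p = 4.69e-06).

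Spry4 had medians of 338 in WT and 422 in Plag1KO oocytes per 10000 spike-in counts, 50.7 and 250 at 2c, and 4.43 and 5.92 at 8c. The 2c embryos labelled matPlag1KO ranged from 48.2 to 461. In WT it fell by 3.0 ± 0.65 on the log2 scale to 2c and by a further 4.04 ± 0.65 to 8c (adjusted p = 4.38e-05 and 1.43e-07). The whole span came to -7.04 ± 0.70 (adjusted p = 2.58e-15), where every WT 8c embryo lay below every WT oocyte. In KO the steps were -1.46 ± 0.61 and -2.43 ± 0.66 (adjusted p = 0.0310 and 0.00150), and the first of these, close to the median gene, changed sign to 0.35 under TMM and was -1.22 without the oocyte in A5 (adjusted p = 0.0725). Without position F5 the KO step from 2c to 8c was -5.62 and the total from oocytes to 8c -7.08, against -3.89 with it.

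Dusp6 was low throughout, with medians between 0 and 2.55 per 10000 spike-in counts. It passed once, as 1.71 ± 0.75 higher at 8c than in oocytes in KO (adjusted p = 0.0381), and without position F5 that adjusted p was 0.0924. The WT value for the same step was 1.40 ± 0.69 (adjusted p = 0.0606). Etv5 had medians of 15.6 in WT and 11.6 in Plag1KO oocytes, went to 5.56 (WT) and 7.77 (KO) at 2c, and reached 9.69 (WT) and 18.4 (KO) at 8c. Its fall to 2c of 1.08 ± 0.48 in WT and 1.21 ± 0.49 in KO (adjusted p = 0.0405 and 0.0260) was smaller than that of the median gene, and under TMM it became 0.36 and 0.51. Without the WT oocyte in A5 and the Plag1KO oocyte in A3 the adjusted p were 0.0810 and 0.0501. From 2c to 8c it rose by 1.48 ± 0.51 in KO (adjusted p = 0.0131) and gave 0.86 ± 0.48 in WT (adjusted p = 0.128), and neither genotype passed between oocytes and 8c.

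The rest of the pathway was described by 6 lists that hold none of the 10 members. Between genotypes 0 of the 97 genes tested in the 6 lists passed in oocytes, 2 at 2c and 5 at 8c, against 0.781%, 4.92% and 1.74% of all genes. At an unadjusted p under 0.05, 6 of the 97 passed in oocytes, 15 at 2c and 20 at 8c, or 6.19%, 15.5% and 20.6%, against 10.2%, 20.5% and 14.3% of all genes. At 2c the ligand gene Fgf22 had 9 counts in WT and 0 in embryos labelled matPlag1KO (edgeR adjusted p = 0.0219), and Glce, an epimerase gene of heparan sulfate synthesis, had 4 and 33 counts (log2 fold change 2.64 ± 0.81, adjusted p = 0.0389). At 8c the ligand gene Fgf1 was higher in matPlag1KO (9.36 ± 9.20 against 28.9 ± 27.0 CPM, SD, n = 15 and 11; adjusted p = 0.0471) and the syndecan gene Sdc4 lower (80.0 ± 83.2 against 22.7 ± 17.4 CPM; adjusted p = 0.0427).

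Also at 8c, Dusp1, a phosphatase gene, had 21 counts in WT and 0 in matPlag1KO (adjusted p = 0.0497). Cblb, a ubiquitin ligase gene, had 27 and 0 counts (adjusted p = 0.0107), and the immediate early gene Junb 1 and 19 counts (adjusted p = 0.00850). Without position F5, Cblb and Junb still passed (adjusted p = 0.0247 and 0.0226), and Fgf1, Sdc4 and Dusp1 did not (adjusted p = 0.156, 0.0615 and 0.0830). The RAS-ERK cascade list, 20 genes tested, had no call between genotypes at any stage, with 0, 1 and 2 genes at an unadjusted p under 0.05 in oocytes, at 2c and at 8c, against 10.2%, 20.5% and 14.3% of all genes.

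Between stages more list genes were called, as were more of all genes. From oocytes to 2c in WT, 13 of 20 RAS-ERK genes fell and 0 rose, where 51.3% of all genes were lower and 14.1% higher. Their median log2 fold change was -1.69 against -1.46 for all genes, and under TMM 3 of the 13 passed and 4 changed sign. The ERK1 gene Mapk3 fell by 2.71 ± 0.54, the MEK1 gene Map2k1 by 2.68 ± 0.35 and Nras by 2.16 ± 0.48 (adjusted p = 1.08e-05, 3.47e-10 and 7.68e-05). Under TMM these were -0.91, -1.40 and -0.36, and Map2k1 passed. From 2c to 8c, 10 of the 20 rose and 3 fell, against 31.9% higher and 16.2% lower among all genes, and the median was 1.12 against 0.53. Nras rose by 2.41 ± 0.49, while Mapk3 fell by a further 4.56 ± 0.57 (adjusted p = 2.55e-05 and 1.09e-10). Both kept their sign and passed in that step under TMM. In KO the counts were 12 lower and 0 higher to 2c (50.3% and 13.5% of all genes), of which 6 changed sign under TMM, and 5 higher and 4 lower to 8c (29.1% and 19.5% of all genes).

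Of 17 feedback inhibitors and phosphatases tested, 8 fell and 1 rose from oocytes to 2c in WT, a share close to that of all genes (51.3% lower, 14.1% higher). None of the 9 changed sign under TMM, but Dusp7, Rasa2 and Cblb no longer passed (adjusted p = 0.504, 0.0974 and 0.145). At 8c 10 were lower and 1 higher than in oocytes. Dusp7, a phosphatase gene of the same family as Dusp6, had a log2 fold change of -6.23 ± 0.57 from oocytes to 8c and Rasa2, a RAS GTPase-activating protein gene, of -3.86 ± 0.49 (adjusted p = 3.86e-17 and 3.22e-11). Of 14 other ligand genes tested, 5 were lower and 3 higher at 8c, with log2 fold changes of -2.57 ± 0.54 for Fgf1, -7.63 ± 0.78 for Fgf8 and -6.19 ± 0.61 for Fgf9 (adjusted p = 1.95e-05, 5.83e-15 and 9.78e-16).

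Of 14 ETS and immediate early genes, 7 were lower and 4 higher at 8c than in WT oocytes. Elk4 changed by -5.13 ± 0.55, Myc by 7.05 ± 0.72 and Etv1, a close relative of Etv5, by -7.66 ± 0.61 (adjusted p = 4.87e-14, 2.94e-14 and 2.45e-20). Among 15 co-receptor genes 3 were higher and 6 lower, with -3.06 ± 0.55 for Sdc1, -2.49 ± 0.54 for Il17rd, 6.64 ± 0.71 for Sdc4 and 3.31 ± 0.70 for the Klotho family gene Klb (adjusted p = 7.18e-07, 3.35e-05, 5.81e-14 and 2.14e-05). Among 17 heparan sulfate genes 5 were higher and 6 lower, with 1.08 ± 0.47 for Sulf2, a sulfatase gene, and -2.83 ± 0.45 and -3.96 ± 0.60 for Ext1 and Extl3, of the exostosin family (adjusted p = 0.0358, 5.22e-08 and 8.82e-09). No list gene called between WT oocytes and 8c changed sign under TMM, and 9 of those 64 no longer passed, among them 3 of the 6 heparan sulfate genes that were lower. The list shares lay on both sides of the background, where 27.1% of all genes were higher and 43.6% lower.

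**Figure D5:**
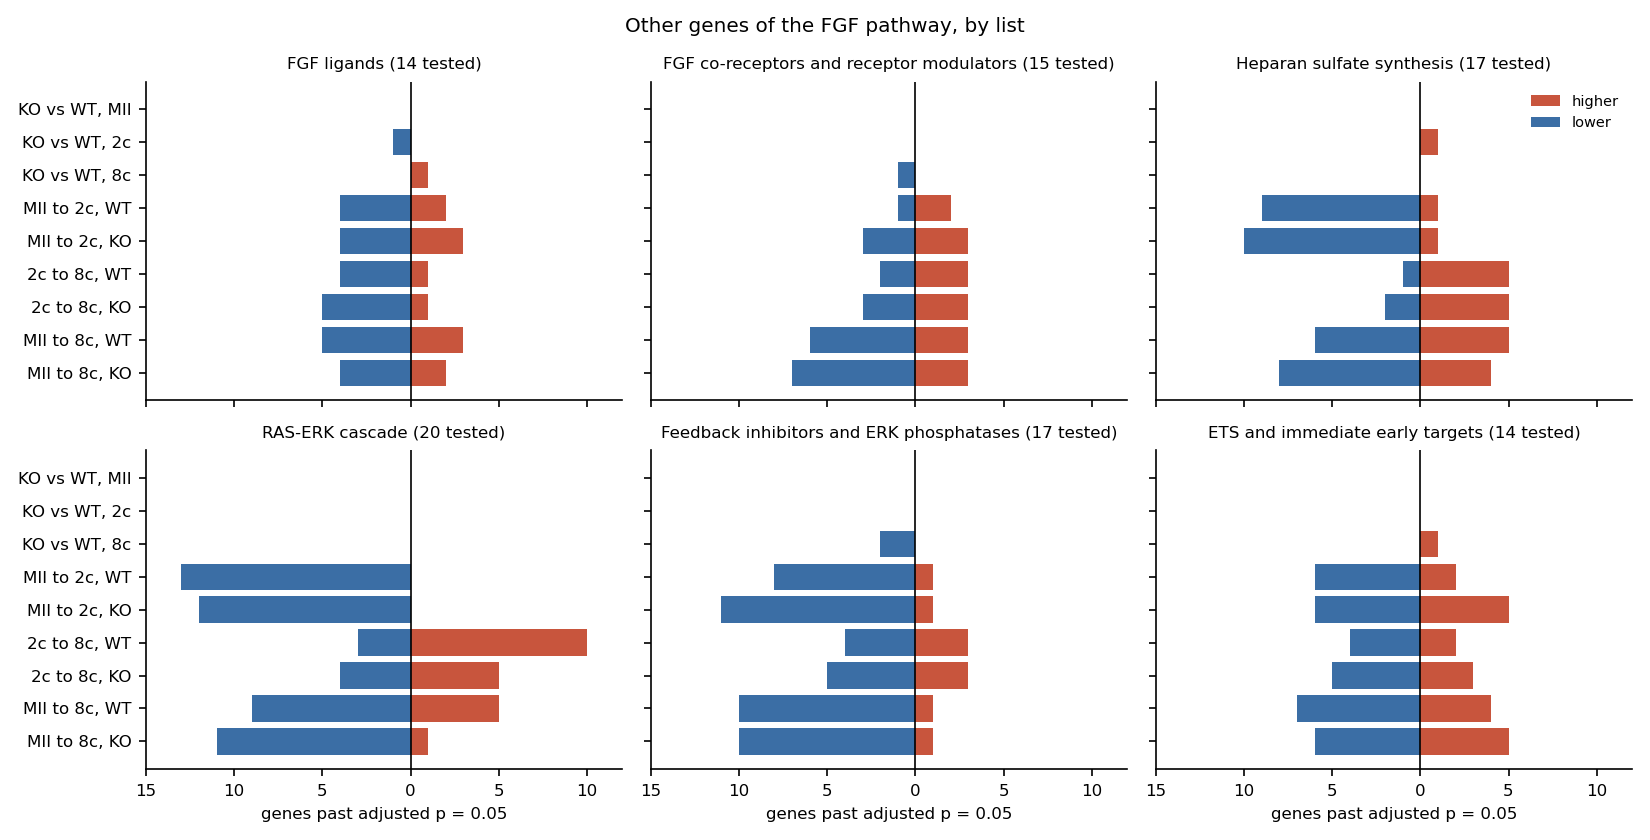
Number of genes past an adjusted p of 0.05 in 6 lists of the FGF pathway, higher to the right and lower to the left, for the 3 genotype comparisons and the 6 stage comparisons (later over earlier). Bars are short for the genotypes and long for the stages, with 13 RAS-ERK genes lower at 2c than in WT oocytes.

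The patterns of the members over the 78 libraries were compared with those of 10840 genes at 10 CPM or more in a group (Pearson r of log2(CPM + 1), as a description, since the libraries share stages and depth). Spry4 was most like C86187 (r = 0.931), Nav2 (0.924) and Tbx19 (0.923), and Grb2 most like Ppm1g (0.820), Gpn3 (0.819) and Gldc (0.817). Spry2 was most like Cdc42ep1 (0.737) and Fgfr2 like Mrpl44 (0.696). The closest values for Fgfr3, Dusp6, Etv5 and Fgfr1 were 0.588 (Cacnb1), 0.577 (Tle3), 0.573 (Polr2a) and 0.480 (Chst11). Fgf4 and Fgfr4 did not reach 10 CPM in any group and were not compared.

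In the table's build, mm9, the members lay on 9 chromosomes, each spanned as a gene: Fgf4 at chr7:152047291-152051148 and Fgfr2 at chr7:137305965-137410322, Fgfr3 at chr5:34064373-34079717, Grb2 at chr11:115505359-115569911 and Etv5 at chr16:22381386-22439643. Fgfr1 lay at chr8:26629231-26686190, Fgfr4 at chr13:55254179-55270120, Spry2 at chr14:106291164-106296036, Spry4 at chr18:38745919-38760922 and Dusp6 at chr10:98725865-98730123. Counts fall on whole genes, so starts and isoforms were not told apart.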

How the data were processed

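Single oocytes and embryos were sequenced by the authors from transcript 5′ ends with molecular identifiers and 92 spike-in RNAs in 2 sets. Per the study's methods, reads were aligned to mm9 with TopHat and assigned to annotated genes with HOMER. The authors deposited raw counts of 24422 genes in 90 libraries, without normalization, and groups, sets and positions were taken from the sample labels.

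A library was dropped (12 of 90) when its median CPM fell below 1, taken over the genes that reach 1 CPM in 5 or more libraries. The same cutoff on the remaining 78 left 16511 genes for testing. A single model of all 6 groups was fitted in edgeR 4.0.16 with its quasi-likelihood test, with TMM factors between genotypes and spike-in totals as library sizes between stages, and p-values were Benjamini-Hochberg adjusted over all genes at 0.05. The standard error printed is the log2 fold change divided by the root of F, an approximation. CPM use TMM library sizes. A group at 0 counts was compared through a floor of 3 counts over the group. The floor covers the counting error of the group at 0 only, and the counts of the other group enter as they stand. Permutation tests were two-sided, exact with fewer than 10 values in a group and otherwise with 100000 resamples. Counts of same-group libraries were compared by chi-square in 481 pairs, and the closest pair gave 3.54 per degree of freedom, so none was a copy. The fits were tested on simulated data.

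The members and pathway lists were chosen with earlier results of these data known. The 10 members are all described, and of each list at most 4 genes are named over all comparisons, those called between genotypes and then the called genes with the highest mean CPM, except that a gene this rule would name is not reported here. Alternatives covered scaling, DESeq2 (version 1.42.0), the filters, the sets, the groups fitted and a block on positions, and those that leave out single positions or libraries, the list checks under TMM, the oocyte fit without its block, and the permutation and same-position checks, were added after the data were seen.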

Additional observations from a re-analysis of the deposited data

Results flagged for a closer look

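The genotype difference of Fgfr3 at 2c departed from that in oocytes. The fitted interaction was 5.59 on the log2 scale (edgeR adjusted p = 0.0275), a size that depends on the prior count, since WT 2c embryos were at 0 counts, against 26 counts in embryos labelled matPlag1KO and 7 and 4 counts in oocytes. Position D2 held 18 of those 26 counts, and the interaction was not refitted without it.

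Among the 12 excluded libraries, 3 values that rest on more than 3 counts lay above every kept WT library of the same stage, in CPM without TMM factors. A WT 2c library (libA, position C1) had 7 Spry4 counts of 4651 gene counts, or 1505 CPM. A WT 2c library (libA, position C4) had 8 Dusp6 counts of 93953, or 85.1 CPM, and a matPlag1KO 2c library (libA, position D3) had 5 Dusp6 counts of 41889, or 119 CPM. On 1 or 2 counts 5 further values lay above the kept WT libraries, among them Spry4 in the matPlag1KO 8c libraries at E6 and F8 of libA, with 1 count of 1721 and 2 counts of 668 gene counts. These libraries enter no comparison above.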

How the results depend on the processing

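Of the recomputed counts of members called, 72 stayed within 1.5 times the reported count and 17 did not. At 2c between genotypes the 2 calls became 1 with spike-in scaling, with the excluded libraries kept, without the matPlag1KO library in D2 of libA and without the WT library in C8 of libB, and 0 in libA and 0 in libB alone. At 8c the 1 call became 0 in libA alone and 0 without position F5. From oocytes to 2c the 8 WT calls became 4 in DESeq2, 3 in libA, 5 in libB and 3 with only those 2 groups fitted, and the 8 KO calls became 4 in libA and 5 in libB. From 2c to 8c the 5 WT calls became 3 in either set, and the 4 KO calls became 1 in libA. The cause was not tested, beyond the fewer libraries that single sets and fits of 2 groups hold.

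TMM in place of spike-in scaling turned the sign of Etv5 from oocytes to 2c (0.36 in WT, 0.51 in KO) and of Spry4 in KO (0.35), and the means of Spry4 per position at 8c without position F5 gave -0.34 (exact permutation p = 0.707). With the position as a replicate block in the 14 oocyte positions kept in both sets, 0 members were called, and 792 of 12978 genes. The same libraries and model without the block gave 0 members and 34 genes, a fit added after the data were seen. Over 10840 genes at 10 CPM or more in a group, same-position deviations correlated above 0.1 in 12 of 14 oocyte pairs (from -0.04 to 0.72), 2 of 8 at 2c and 7 of 12 at 8c, and over the 16511 genes tested in 12, 2 and 4. The main fits did not pair positions, in oocytes either. The oocyte background share of 0.781% thus comes from libraries taken as independent. Depth limits the 2c results: 3 counts over a group there equal 1.81 CPM in WT and 1.60 CPM in matPlag1KO. A total of 16 member values could not be given in an alternative because both groups were at 0 or no adjusted p was set.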
